A study of Homo sapiens with 6 samples.

Results

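The genes described here are 34 components and targets of the NF-κB pathway, taken from the 31016 genes of the deposited table by their gene names. They comprise 5 NF-κB subunits, 5 IκB-family proteins, 3 subunits of the IκB kinase (IKK), 4 receptor or adaptor genes, 4 feedback and survival genes, 6 chemokines, and 7 cytokine and adhesion genes. The 6 libraries hold poly(A) RNA from DLD-1, a single established human line of colorectal adenocarcinoma epithelial cells. All 6 libraries came from cells given TGF-β, and 3 of them also from cells given TFA, a total flavone preparation of Abelmoschus manihot, a medicinal plant. They are named TGFb 1 to 3 and TGFb_TFA 1 to 3. The labels give treatment times of 24, 25 and 26 h to replicates 1, 2 and 3 of each group, and no dose of either agent. No library without TGF-β is analysed here, so each difference is that of TFA on a TGF-β background. The series' design text presents the comparison as a study of TFA against the malignant behaviour of colorectal cancer cells. Nothing in the labels says that the replicates were separate cultures, so p-values measure the spread between these libraries, which may be technical.

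NF-κB proteins are transcription factors that bind DNA as pairs of subunits and are held in the cytoplasm by IκB proteins. Signals from receptors for TNF or interleukin-1 act through adaptor proteins on the IKK complex, which marks IκB for destruction and lets the subunits enter the nucleus. Many of the genes switched on in this way encode chemokines, or inhibitors such as IκBα and A20 that close the loop. In colonic epithelium and its tumours the pathway is known for the release of chemokines that attract neutrophils and lymphocytes.

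Library totals were 60361756 to 68745953 estimated counts, with 23096 to 24159 genes above 0. CYP1A1, a detoxifying enzyme that plant flavonoids are known to induce, was at 0.394 to 0.589 FPKM (fragments per kilobase, scaled to library size) with TGF-β alone and at 20.6 to 24.0 FPKM with TFA. The 10 epithelial markers summed to 1420 to 1820 FPKM per library. KRT18 and KRT8 were the highest of them, and VIL1 was the lowest at 0.0356 to 0.302 FPKM. CDH1 was at 10.2 FPKM in TGFb_TFA 3 and at 19.2 to 27.7 FPKM in the other libraries. Leukocyte markers, 7 of 11 of them measured, summed to 0.397 to 0.664 FPKM, with TYROBP at 0 in every TGFb library. The 9 fibroblast markers summed to 0.0377, 0.304 and 0.352 FPKM in TGFb 1 to 3 and to 0.456, 1.93 and 2.38 FPKM in TGFb_TFA 1 to 3. Within that list COL3A1, DCN and LUM were at 0 in every TGFb library. The 8 endothelial markers summed to 1.55 to 1.99 FPKM in the TGFb libraries, where CDH5 was at 0, and to 2.04 to 2.38 FPKM in the TGFb_TFA libraries. The part of these low marker levels in the values below was not tested. TGFb_TFA 3 stood apart from the other 5 libraries, being the lowest of the 6 in 29.8% and the highest in 28.6% of the 18265 genes tested. The plot of fitted differences with and without it shows both values for each tested gene.

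None of the 34 genes was called between the groups. With edgeR's quasi-likelihood test and Benjamini-Hochberg adjustment, 2 of 18265 genes were called at an adjusted p under 0.05, a share of 0.0109%. Of the 34 genes 32 had counts high enough to be tested, and 0 of the 32 were called. Before adjustment, 1.83% of tested genes had a p under 0.05 (1.07% higher and 0.761% lower with TFA), and again 0 of the 32 did. The lowest unadjusted p among them, 0.101, belonged to ICAM1. DESeq2 called 15 genes, 0.0702% of those given an adjusted p, and none of the 34. The fitted log2 fold change lay above 0 in 10 of the 32 genes and below 0 in 22. Its median was -0.06, against 0.01 for all tested genes, and it ran from -0.48 for BCL3 to 0.36 for CXCL8. The 95% interval of the fold change lay within 1.5-fold either way for 15 of the 32 genes and within 2-fold for 26. It was wider than that for BCL3, CSF1, IL1A, LTB, REL and TNFAIP2. A missed threshold does not show that levels were equal, and these intervals give the sizes of difference the libraries leave possible. Expression in bulk RNA also cannot tell fewer cells of a kind apart from less RNA per cell.

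**Figure D1:**
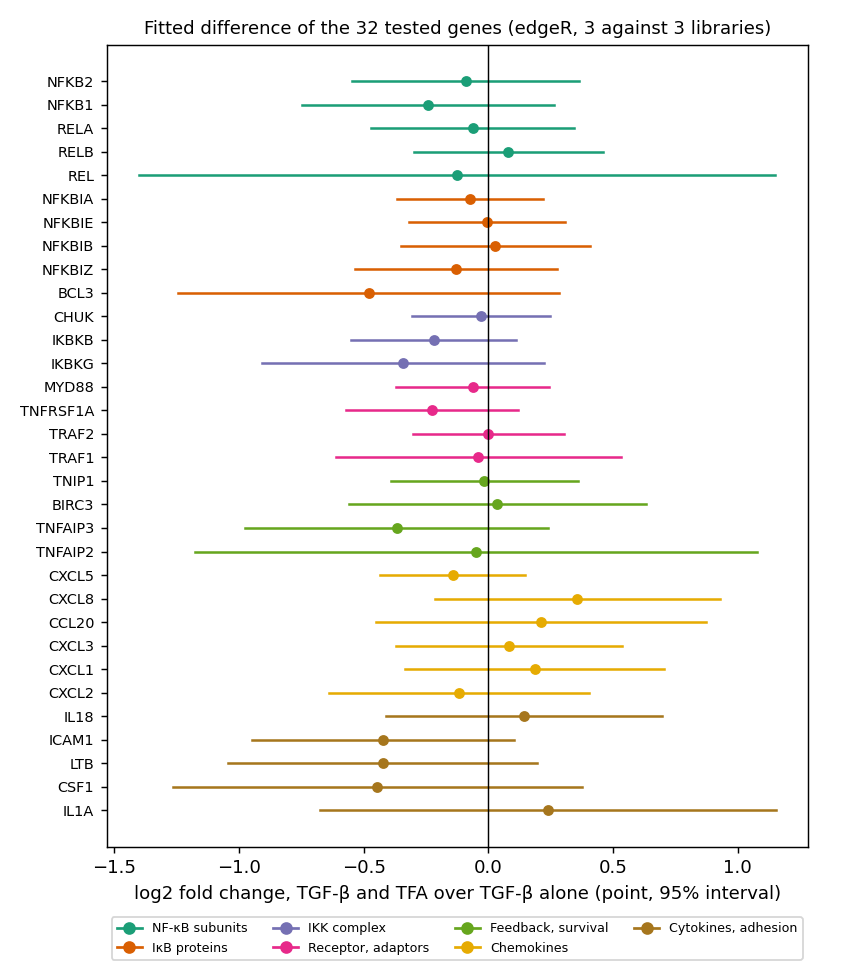
Fitted log2 fold change of TGF-β with TFA over TGF-β alone for the 32 tested genes (points, edgeR, 3 against 3 libraries) with 95% intervals (bars), coloured by role. Every interval crosses 0, and the points run from -0.48 for BCL3 to 0.36 for CXCL8.

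The 6 chemokines spanned a wide range of levels, and none was called. CXCL1, CXCL2, CXCL3, CXCL5 and CXCL8 (also known as interleukin-8) are neutrophil attractants that act on the receptor CXCR2. Their genes lie in a cluster on chromosome 4 that holds 13 genes of the table between CXCL8 and CXCL2 (positions 73740541 to 74099195, GRCh38). CCL20, which attracts dendritic cells and some lymphocytes through CCR6, lies on chromosome 2. The promoters of the 5 clustered genes are shown because each holds a match to the κB motif, the DNA sequence NF-κB binds. The 30-base stretches below are from RefSeq (GRCh38.p14), written 5′ to 3′ on the strand of the gene. Capitals mark the match, which is GGAATTTCC in CXCL8 and the same letters with a G before and a C after in the others.

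CXCL1: tggaactccGGGAATTTCCCtggcccgggg
CXCL2: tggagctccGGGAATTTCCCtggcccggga
CXCL3: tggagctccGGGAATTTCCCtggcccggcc
CXCL5: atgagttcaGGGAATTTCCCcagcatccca
CXCL8: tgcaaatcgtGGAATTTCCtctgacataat

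These stretches lie at chr4:73869305-73869334 (plus strand, CXCL1), chr4:74099253-74099282 (minus, CXCL2), chr4:74038748-74038777 (minus, CXCL3), chr4:73998748-73998777 (minus, CXCL5) and chr4:73740468-73740497 (plus, CXCL8). Counted from the RefSeq start, GGAATTTCC ran from base -78 to -70 in CXCL1 and CXCL3, from -77 to -69 in CXCL2, from -90 to -82 in CXCL5 and from -91 to -83 in CXCL8. GENCODE 29 also holds transcripts of CXCL2, CXCL3 and CXCL5 that begin farther upstream and take in the match. The stretches of CXCL1 and CXCL2 shared 28 of 30 bases, and that of CXCL5 shared 17 with CXCL1 and 14 with CXCL8.

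Among the 34 genes, 29 had an entry in the set of RefSeq promoters used here (250 bases before to 50 after a start). RELB, NFKBIE, IKBKB, CSF1 and IL18 had none in that set. GGAATTTCC was found on either strand in 11 of the 29 (37.93%), against 0.56% of 27305 genes with a promoter. These were CXCL1, CXCL2, CXCL3, CXCL5, CXCL8, ICAM1, NFKB1, NFKBIA, NFKBIB, NFKBIZ and REL. The broader κB consensus, whose matches can overlap this core, was found in 16 of 29 (55.17%), against 13.25% of all genes. CCL20 had a match to the consensus but not to the core. The 34 genes were picked as components and targets of the pathway, so a share above that of all genes is no independent result. A match describes these letters in this window, and no binding was measured.

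Among the 6 listed chemokines, outside which no chemokine gene was summed, CXCL5 (chr4:73995642-73998677, minus strand) made up nearly all of the FPKM. It accounted for 95.3% to 97.0% of the summed FPKM of the 6 chemokines in each library, and for 86.2% to 88.2% of that of all 34 genes. Its FPKM was 20.4 to 32.4 times that of the other 5 chemokines together. By FPKM it ranked between 27 and 42 among all genes of a library, and it took 0.273% to 0.330% of all estimated counts. Between the groups, CXCL5 stood at 1154, 1207 and 1091 FPKM in TGFb 1 to 3 and at 1045, 1002 and 1006 FPKM in TGFb_TFA 1 to 3. All 3 TGFb_TFA libraries lay below all 3 TGFb libraries on this scale, as in 3.53% of the 10496 genes whose mean FPKM was 1 or more (3.31% lay above). The means were 1151 ± 58.2 (SD, n = 3) and 1018 ± 23.7 FPKM (SD, n = 3). On TMM-scaled CPM (counts scaled to library size), which edgeR used, the groups overlapped. There CXCL5 was at 3102, 3328 and 2915 CPM in TGFb 1 to 3 and at 2750, 2624 and 3089 CPM in TGFb_TFA 1 to 3, where TGFb_TFA 3 lay above TGFb 3. The TMM factor of TGFb_TFA 3 was 0.895, against 0.993 to 1.042 in the other libraries. FPKM of every gene are given as deposited, without this factor, so TGFb_TFA 3 can rank lower in FPKM than in CPM. The fitted log2 difference of CXCL5, -0.14 (SE 0.12, 95% interval -0.43 to 0.15), had an adjusted p of 0.9997 by edgeR's quasi-likelihood test with Benjamini-Hochberg adjustment. Without TGFb_TFA 3 it was -0.21, with an unadjusted p of 0.0472 and an adjusted p of 0.999 in the same edgeR test. In that fit 506 of 19152 genes had an unadjusted p under 0.05, and CXCL5 was the 1 of the 32.

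CXCL8 (chr4:73740541-73743716, plus strand) was measured at 11.7, 12.5 and 10.5 FPKM in TGFb 1 to 3. With TFA it was at 12.5, 11.6 and 18.5 FPKM, so that TGFb_TFA 3 was the high library. TGFb_TFA 2 lay within the TGFb range, and TGFb_TFA 1 (12.54 FPKM) lay just above TGFb 2 (12.46 FPKM). The log2 fold change was 0.36 (SE 0.25, interval -0.22 to 0.93), and 0.02 without TGFb_TFA 3. CCL20 (chr2:227805739-227817556, plus strand) also had its highest value in TGFb_TFA 3. Its levels were 12.9, 13.1 and 10.7 FPKM in TGFb 1 to 3 and 10.9, 11.0 and 18.7 FPKM in TGFb_TFA 1 to 3. Its log2 fold change was 0.21 (SE 0.28), and -0.20 without TGFb_TFA 3. For both genes the sign or size of the fitted difference thus rested on 1 library.

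CXCL1 had its highest FPKM in TGFb_TFA 1 and its lowest in TGFb_TFA 3. It was at 4.93, 5.09 and 4.03 FPKM in TGFb 1 to 3 and at 7.07, 5.15 and 3.65 FPKM in TGFb_TFA 1 to 3, with a log2 fold change of 0.19 (SE 0.22). This was 0.34 without TGFb_TFA 3 and -0.05 without TGFb_TFA 1. CXCL3 was at 5.48, 5.61 and 5.00 FPKM against 5.78, 4.51 and 6.24 FPKM, with a log2 fold change of 0.08 (SE 0.19), and -0.11 without TGFb_TFA 3. CXCL2 was at 2.22, 2.27 and 3.45 FPKM against 2.37, 2.70 and 2.10 FPKM, with a log2 fold change of -0.12 (SE 0.22). In these 3 genes the groups overlapped. CXCL2 and CXCL3 share a few stretches of identical transcript sequence, 29 windows of 150 bases, or 1.83% of those of CXCL2 and 1.15% of those of CXCL3. The mean levels per length of these 3 genes lay between 2.39 and 5.51 FPKM in either group. CXCL8 and CCL20 followed above them at 11.6 and 12.2 FPKM with TGF-β alone, a gap between these 2 within their SDs of 0.983 and 1.37, and CXCL5 stood far above all. Of the other genes in the cluster, CXCL6 did not pass the filter on low counts, with estimated counts of 6, 0 and 0 in TGFb 1 to 3 and 5, 15 and 12 in TGFb_TFA 1 to 3.

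**Figure D2:**
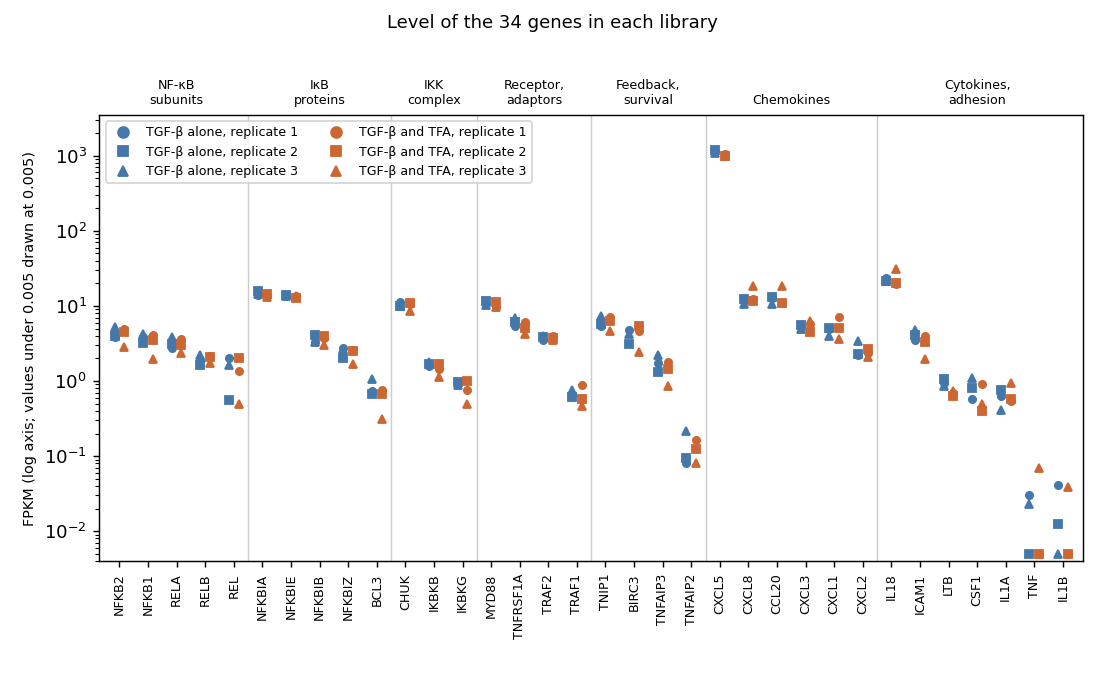
FPKM of every gene in each of the 6 libraries on a log axis, by role, with TGF-β alone and TGF-β with TFA as separate markers. CXCL5 sits at 1002 to 1207 FPKM, and the groups' points interleave for most genes.

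Among the cytokine and adhesion genes, LTB was the 1 gene of the 32 whose groups did not overlap in CPM, where 3.33% of all tested genes had all TFA libraries lower and 4.58% all higher. LTB encodes lymphotoxin beta, a membrane-bound relative of TNF that engages the non-canonical arm of the pathway, and lies at chr6:31580525-31582522 on the minus strand. It was measured at 1.59, 1.86 and 1.47 CPM in TGFb 1 to 3 and at 1.17, 1.06 and 1.45 CPM in TGFb_TFA 1 to 3, so that TGFb 3 and TGFb_TFA 3 nearly met. In FPKM the values were 0.930, 1.05 and 0.865 against 0.685, 0.631 and 0.730, also without overlap. The fitted log2 difference, -0.42 (SE 0.27, interval -1.04 to 0.20, unadjusted edgeR p 0.152), was -0.56 without TGFb_TFA 3. The groups of LTB overlapped in CPM with DESeq2's size factors in place of TMM, and when TGFb 1, TGFb_TFA 1 or TGFb_TFA 2 was left out.

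IL18, an interleukin-1 family cytokine that epithelial cells hold as a precursor, had the highest level of this group. It was at 23.4, 21.7 and 21.6 FPKM in TGFb 1 to 3 and at 19.8, 20.3 and 30.6 FPKM in TGFb_TFA 1 to 3. TGFb_TFA 1 and 2 lay below every TGFb library and TGFb_TFA 3 above every one. Its log2 fold change was 0.14 (SE 0.24), and -0.19 without TGFb_TFA 3. ICAM1, the adhesion molecule that leukocytes grip through their integrins, was at 3.48, 4.12 and 4.83 FPKM in TGFb 1 to 3. With TFA it was at 3.97, 3.26 and 1.98 FPKM, with TGFb_TFA 3 the lowest and TGFb_TFA 1 within the TGFb range. Its log2 fold change of -0.42 (SE 0.23, interval -0.95 to 0.10) was -0.24 without TGFb_TFA 3. Without TGFb_TFA 1 it was -0.62, with an unadjusted p of 0.0289 and an adjusted p of 0.990 in edgeR with Benjamini-Hochberg adjustment. In that fit 376 of 19043 genes, 2 of the 32 among them, had an unadjusted p under 0.05.

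CSF1, the macrophage growth factor, averaged 0.832 ± 0.255 FPKM with TGF-β alone and 0.600 ± 0.270 FPKM with TFA (SD, n = 3 each). IL1A, the alarmin interleukin-1α, averaged 0.604 ± 0.184 and 0.684 ± 0.218 FPKM. Neither difference exceeded the spread between replicates. TNF and IL1B, the cytokines that classically start the pathway, did not pass the filter on low counts. TNF had estimated counts of 4, 0 and 3 in TGFb 1 to 3 and 0, 0 and 8 in TGFb_TFA 1 to 3. IL1B had 10, 3 and 0 against 0, 0 and 8. At these counts no difference could be measured.

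The 5 NF-κB subunits ranged from 0.487 to 5.27 FPKM in single libraries, with NFKB2 and NFKB1 the highest and REL the lowest by mean. NFKB2 (p100, the precursor of p52) was at 3.92, 4.02 and 5.27 FPKM in TGFb 1 to 3 and at 5.00, 4.45 and 2.83 FPKM in TGFb_TFA 1 to 3. NFKB1 (p105, the precursor of p50) was at 3.87, 3.24 and 4.28 FPKM against 4.06, 3.51 and 1.99 FPKM. In both genes TGFb_TFA 3 was the lowest library and the other 2 TFA libraries lay within the TGFb range. The log2 fold change was -0.09 (SE 0.20) for NFKB2 and -0.24 (SE 0.22) for NFKB1, and without TGFb_TFA 3 these were 0.06 and -0.05. RELA (p65), the main activating subunit, averaged 3.21 ± 0.547 and 3.03 ± 0.643 FPKM, with a log2 fold change of -0.06 (interval -0.47 to 0.34). RELB, the partner of p52, averaged 1.91 ± 0.277 and 1.98 ± 0.225 FPKM, with a log2 fold change of 0.08 (interval -0.30 to 0.46). Neither subunit differed by more than the spread between replicates.

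REL (c-Rel) had the widest interval of the subunits, from -1.40 to 1.15 around -0.13, and its fitted value was 0.23 without TGFb_TFA 3. It was at 2.05, 0.552 and 1.64 FPKM in TGFb 1 to 3 and at 1.37, 2.05 and 0.487 FPKM in TGFb_TFA 1 to 3. Of the 150-base windows in REL transcripts, 41.88% also occur in other genes, AC010733 (ENSG00000267520) among them, so its reads may be divided between genes. The estimated counts of AC010733 were 68, 226 and 75 in TGFb 1 to 3 and 661, 77 and 50 in TGFb_TFA 1 to 3. Summed with AC010733, REL had a log2 fold change of 0.04.

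The inhibitors differed more among themselves than between groups. NFKBIA (IκBα), the classical inhibitor and itself a target of the pathway, was at 14.1, 15.9 and 14.4 FPKM in TGFb 1 to 3 and at 13.6, 14.6 and 13.1 FPKM in TGFb_TFA 1 to 3. NFKBIE (IκBε) was at 13.4, 14.2 and 13.4 FPKM against 13.7, 12.6 and 13.6 FPKM. The groups overlapped in both, and the log2 fold changes were -0.07 (interval -0.37 to 0.22) and 0.00 (interval -0.32 to 0.31), both within 1.5-fold either way. The means of NFKBIA and NFKBIE, 14.8 ± 0.975 and 13.7 ± 0.432 FPKM with TGF-β alone, were each over the 3.55 ± 0.490 FPKM of NFKBIB (IκBβ). NFKBIZ (IκBζ), a nuclear family member that works with p50 on a subset of targets, averaged 2.50 ± 0.385 and 2.25 ± 0.511 FPKM. BCL3, a nuclear IκB protein that binds p50 and p52, averaged 0.822 ± 0.210 and 0.581 ± 0.238 FPKM. Its log2 fold change, -0.48 (SE 0.33, interval -1.24 to 0.29), was the lowest of the 32 genes with all 6 libraries. TGFb_TFA 3 held its lowest value at 0.311 FPKM, and without that library the log2 fold change was -0.23, nearer 0 than the -0.56 of LTB.

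In the IKK complex, CHUK (IKKα) stood well above its partners per length. It was at 11.2, 9.84 and 10.1 FPKM in TGFb 1 to 3 and at 10.6, 10.8 and 8.58 FPKM in TGFb_TFA 1 to 3, with a log2 fold change of -0.03 (interval -0.31 to 0.25). IKBKB (IKKβ), the kinase of the canonical arm, was at 1.59, 1.68 and 1.79 FPKM against 1.43, 1.71 and 1.15 FPKM. The log2 fold change was -0.22 (SE 0.14), and TGFb_TFA 2 lay within the TGFb range. IKBKG (NEMO), the scaffold subunit, averaged 0.950 ± 0.0564 and 0.746 ± 0.251 FPKM, with a log2 fold change of -0.34 (SE 0.24), and -0.17 without TGFb_TFA 3. It shares 20.75% of its 150-base windows with the copy IKBKGP1, and summed with it the log2 fold change was -0.17.

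Upstream of the kinase, MYD88, the adaptor of interleukin-1 and Toll-like receptors, was at 10.7, 11.8 and 10.3 FPKM in TGFb 1 to 3 and at 9.73, 11.2 and 9.75 FPKM in TGFb_TFA 1 to 3. TNFRSF1A, the main TNF receptor, was at 5.40, 6.11 and 6.90 FPKM against 6.05, 5.16 and 4.28 FPKM. The groups overlapped in both genes, and the log2 fold changes were -0.06 (SE 0.13) and -0.23 (SE 0.15). TRAF2, an adaptor of the TNF receptor, averaged 3.82 ± 0.232 and 3.73 ± 0.190 FPKM, with a fitted log2 difference of 0.00 and an interval from -0.30 to 0.30. TRAF1, a target gene whose product pairs with TRAF2, averaged 0.668 ± 0.0777 and 0.641 ± 0.210 FPKM.

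The feedback and survival genes gave log2 fold changes from -0.37 to 0.04. TNIP1, which binds A20 and ubiquitin chains, was at 5.46, 5.83 and 7.27 FPKM in TGFb 1 to 3 and at 7.10, 6.32 and 4.68 FPKM in TGFb_TFA 1 to 3. BIRC3 (cIAP2), a ubiquitin ligase that protects from cell death, was at 4.80, 3.15 and 4.19 FPKM against 4.66, 5.34 and 2.41 FPKM. In both genes TGFb_TFA 3 was the lowest library, and BIRC3 had a log2 fold change of 0.04 (SE 0.26) with it and 0.26 without it. TNFAIP3, which encodes A20, averaged 1.78 ± 0.455 and 1.37 ± 0.471 FPKM, with a log2 fold change of -0.37 (SE 0.26), and -0.18 without TGFb_TFA 3. TNFAIP2, a TNF-induced gene of membrane protrusions, had the lowest level of the tested genes, at 0.129 ± 0.0730 and 0.124 ± 0.0422 FPKM.

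TGFb_TFA 3 was often at an extreme of these genes. It was the lowest of the 6 libraries in 15 of the 32 tested genes and the highest in 7. TGFb 3 was the highest in 13 of the 32, against 20.3% of all tested genes. The log2 deviation of TGFb_TFA 3 from the mean of the other 5 libraries was 0.88 for CCL20, 0.86 for CXCL8, 0.72 for IL18 and 0.90 for IL1A. It was -1.31 for REL, -1.07 for BCL3, -0.78 for ICAM1, -0.74 for TNFAIP3 and -0.72 for NFKB1. Over the 32 genes the deviation fell with the effective transcript length (count over FPKM) at a Pearson r of -0.61 and a Spearman rho of -0.62. The points share a library and its depth, and are a description. Over the 12499 genes with a mean count of 100 or more the values were -0.44 and -0.52. In the 16 shortest of the genes (1.36 to 3.55 kb) the median deviation was 0.05, and in the 16 longest (3.66 to 13.1 kb) it was -0.33, with 14 of the 16 below 0.

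**Figure D3:**
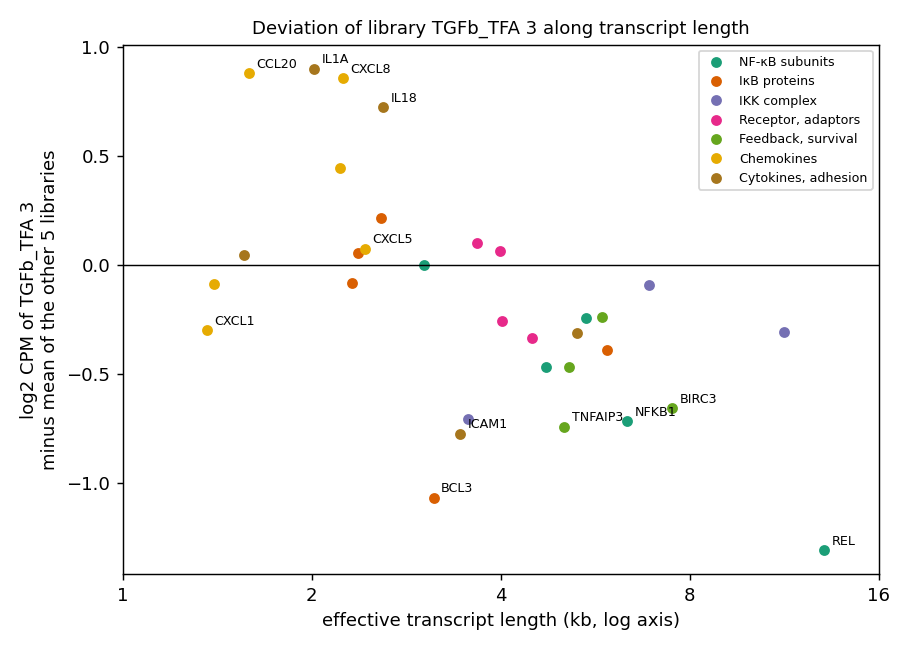
Log2 deviation of TGFb_TFA 3 from the mean of the other 5 libraries (vertical axis) against effective transcript length in kb on a log axis (horizontal) for the 32 tested genes. The points fall from CCL20, IL1A and CXCL8 at 0.86 to 0.90 to REL at -1.31.

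Without TGFb_TFA 3, the fitted difference changed sign in 12 of the 32 genes, CCL20 and IL18 among them. It changed sign in 10 without TGFb 3, and in 4 without any other single library. The share of all genes that changed sign was not counted. Without TGFb_TFA 3, the groups of CXCL5, LTB and IL18 did not overlap, each lower with TFA. Of all tested genes 9.44% were lower and 10.5% higher in that way. With each library's trend along transcript length removed, CXCL5 and LTB had groups that did not overlap, both lower with TFA, at log2 fold changes of -0.17 and -0.46. Of all tested genes 4.08% were then lower and 4.49% higher in that way. CXCL5 was then at 3183, 3173 and 2943 CPM in TGFb 1 to 3 and at 2854, 2688 and 2713 CPM in TGFb_TFA 1 to 3. Neither gene was called under either setting. The part of transcript length or RNA quality in these values was not tested beyond these fits.

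**Figure D4:**
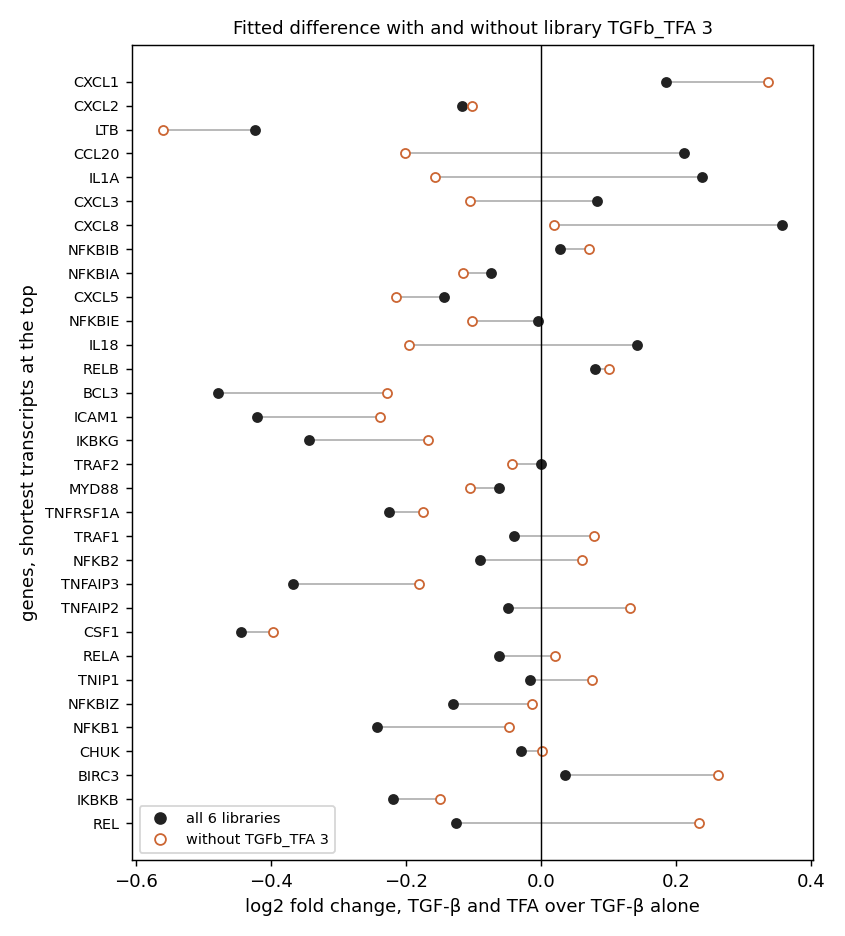
Fitted log2 fold change of each of the 32 tested genes with all 6 libraries and without TGFb_TFA 3 (horizontal axis, log2; 1 row per gene). CXCL8 moves from 0.36 to 0.02, CCL20 from 0.21 to -0.20 and IL18 from 0.14 to -0.19.

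The wider pathway was described from 5 further lists with 114 genes, in which 0 genes were called. Of 34 tested genes of upstream signalling (receptors, adaptors and kinases), 18 were fitted above 0 and 16 below, with a median log2 fold change of 0.01 and none with an unadjusted p under 0.05. BIRC2 (cIAP1) and IRAK1, the most abundant of them by the mean over all 6 libraries, averaged 15.8 ± 2.29 and 11.9 ± 1.20 FPKM with TGF-β alone and 14.9 ± 5.34 and 13.2 ± 2.35 FPKM with TFA. Of 13 further negative regulators the median was -0.05. TAX1BP1, an autophagy receptor that assists A20, averaged 85.9 ± 6.92 and 76.7 ± 19.9 FPKM, and COMMD1, which promotes the breakdown of RELA, 11.3 ± 0.860 and 10.6 ± 2.08 FPKM. Of 11 tested genes in a list around interleukin-1 and interleukin-18, the median was 0.04. That list mixes related cytokines, receptors, inhibitors and processing genes. IL33 averaged 16.1 ± 1.04 and 14.1 ± 0.131 FPKM, and CASP4 12.8 ± 1.11 and 12.7 ± 1.20 FPKM. GSDMD of the same list, named after its values were seen, averaged 4.75 ± 0.314 and 5.27 ± 0.254 FPKM. In CPM the groups of IL33 and of GSDMD overlapped. In FPKM every TFA library of IL33 lay below every TGFb library, and every TFA library of GSDMD lay above. Of the genes whose mean FPKM was 1 or more, 3.53% were lower and 3.31% higher in that way. Of the 8 chemokine receptors listed, CXCR2, a receptor for the CXCL chemokines above, was the 1 that passed the filter, at 0.126 ± 0.0739 and 0.0909 ± 0.0319 FPKM. ACKR3, a scavenging receptor for other chemokines, averaged 0.0714 ± 0.0621 and 0.0404 ± 0.0142 FPKM.

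Among 33 tested targets outside the 34 genes the median log2 fold change was -0.01, with 16 above 0 and 17 below. The most abundant were SAA1, an acute-phase protein, and LCN2, an iron-trapping defence protein. SAA1 averaged 162 ± 31.2 and 155 ± 45.1 FPKM, and LCN2 86.7 ± 7.58 and 67.7 ± 6.86 FPKM. In FPKM every TFA library of LCN2 lay below every TGFb library, and in CPM its groups overlapped. SDC4, a cell-surface proteoglycan, was the 1 gene of the 5 lists with an unadjusted p under 0.05, a level that 1.83% of all tested genes passed. It was at 55.8, 65.7 and 58.9 FPKM in TGFb 1 to 3 and at 47.1, 43.3 and 46.5 FPKM in TGFb_TFA 1 to 3, with every TFA library below every TGFb library, as in 3.53% of the genes whose mean FPKM was 1 or more. The fitted log2 difference of -0.36 (SE 0.14, interval -0.70 to -0.03) had an unadjusted p of 0.0372, and an adjusted p of 0.9997 in edgeR after Benjamini-Hochberg adjustment.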

How the data were processed

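The table holds FPKM and estimated counts as the authors deposited them, 1 column each per library. Per the labels' protocols, libraries were poly(A)-selected, kept strand by dUTP and carried molecular identifiers; no source used here says whether counting used identifiers or strand. GRCh38, StringTie 1.3.4d, HISAT2 2.0.4 and cutadapt 1.9 are listed, without roles, per the submitters' processing notes. Estimated counts (whole numbers) were tested with edgeR 4.0.16 (R 4.3.3): filterByExpr, TMM, group as the only term, quasi-likelihood test (2-sided), Benjamini-Hochberg adjustment over 18265 genes. Counts may derive from coverage and overstate fragments. Each SE is the size of the log2 fold change over the square root of F. Alternatives used DESeq2 1.42.0, limma 3.58.1 on log2(FPKM + 0.5), other filters, scalings and left-out libraries. Every member was named. Library values were given for members with groups that did not overlap, the 2 most abundant of each role and every chemokine; from other lists, genes with an unadjusted p under 0.05 and the 2 most abundant. Genes set apart for library or length effects were chosen after their values were seen. The members and lists were chosen with earlier results of these data known. The code was tested on simulated data. A planned leukocyte marker is not reported here.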

Additional observations from a re-analysis of the deposited data

How the results depend on the processing

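In each of the 18 alternatives 0 members were called, of the 25 to 34 that each tested. The count of genes called in the whole table, 2, was 15 with DESeq2, and 1 to 3 with a library left out. Labels number the replicates 1 to 3 in both groups, but deviations of same-numbered libraries correlated at 0.04, -0.12 and -0.13, so the numbers were not taken to pair the libraries. With the replicate number as a block, 1 gene was called, 0 of the 32 members were, and their median was -0.07. The count of members whose groups did not overlap, 1, was 0 with DESeq2, with its size factors in edgeR, with a mean FPKM of at least 1 and with counts divided by 4, and 2 with the length trend removed. It was 2 to 6 with a library left out, the most without TGFb_TFA 1 (BCL3, TNFRSF1A, TRAF1, TNFAIP3, CSF1 and ICAM1, all lower, where 8.08% of all genes were lower and 7.91% higher in that way), and 9 with TGFb 1 and TGFb_TFA 3 both left out, where 19.2% of all genes were higher and 18.7% lower in that way. The median of the members was -0.13 to -0.05 with a library left out. The genes behind the median of the list around interleukin-1 and interleukin-18 changed with the filter. The median, 0.04 over 11 genes, was 0.080 over 15 with no filter and -0.050 over 4 with a mean FPKM of at least 1. It was -0.020 with counts divided by 4. In limma, with the same filter on mean FPKM, it was -0.095, -0.098 and -0.092 with pseudocounts of 0.5, 0.1 and 1. It was -0.24 to 0.10 with a library left out. With both libraries out, the median was 0.039 for the negative regulators and -0.13 for the other targets. With a library left out these were -0.090 to 0.023 and -0.09 to 0.03, and that of upstream signalling was -0.02 to 0.07. Summing REL and IKBKG with the genes that share their sequence was added after seeing the data and left LTB as the 1 member without overlap. The causes were not tested. The low counts of TNF and IL1B limit what depth could show for them.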

Other observations

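The lncRNA AC097709 (ENSG00000287037, chr4:73997933-74007682, plus strand) overlaps the 5′ part of CXCL5 on the opposite strand. Its estimated counts were 353, 369 and 257 in TGFb 1 to 3 and 226, 240 and 233 in TGFb_TFA 1 to 3, or 0.131% to 0.169% of the CXCL5 counts of the same library. Its log2 fold change was -0.34 (SE 0.20), and its groups overlapped in CPM. In FPKM every TFA library was lower, as in 3.53% of the genes whose mean FPKM was 1 or more, where 3.31% were higher. No source used here says whether counting used strand, so reads of the pair may not have been told apart. PF4, the platelet chemokine gene of the same cluster, was listed at 3.89 FPKM with TGF-β alone and 4.39 FPKM with TFA, in cells with leukocyte markers near 0.

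Among the wider lists, 7 genes outside the 34 had groups that did not overlap in CPM, named here after their values were seen. NFKBID, IRAK3, PTGS2, NOS2 and CD74 were higher with TFA in 3 of 3 libraries, and CX3CL1 and SDC4 lower. Of 13 tested negative regulators 2 were higher, and of 33 tested other targets 3 were higher and 2 lower. The remaining lists held none. IRAK3 and CD74 were near 0. IRAK3 had estimated counts of 4, 4 and 15 in TGFb 1 to 3 and 20, 16 and 14 in TGFb_TFA 1 to 3. CD74 had 7, 19 and 0 against 25, 19 and 36. Their log2 intervals ran from -0.56 to 3.01 and from -0.72 to 4.28, so neither is taken as a measured rise. NFKBID, a nuclear IκB protein, averaged 1.02 FPKM with TGF-β alone and 1.29 FPKM with TFA, with a log2 fold change of 0.37 (interval -0.01 to 0.76). PTGS2, the inducible cyclooxygenase, averaged 0.609 and 0.842 FPKM (log2 interval -0.05 to 1.01). NOS2 averaged 0.271 and 0.366 FPKM (log2 interval -0.15 to 1.11). CX3CL1, the chemokine fractalkine, averaged 0.662 and 0.449 FPKM (log2 interval -1.09 to 0.02). Apart from that of SDC4, the intervals of these genes crossed 0, so none of those genes is taken as a measured difference. In FPKM the groups of PTGS2, CX3CL1 and IRAK3 overlapped. Those of NFKBID, NOS2 and CD74 (higher with TFA) and SDC4 (lower) did not overlap in FPKM either. PTGS2 was at 0.71 FPKM in TGFb 3 and 0.65 FPKM in TGFb_TFA 3. CX3CL1 was at 0.546 FPKM in TGFb 1 and 0.550 FPKM in TGFb_TFA 1. None of the 7 was called by edgeR, and 4.58% of all tested genes were higher and 3.33% lower in this way.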
